A study of Homo sapiens with 12 samples.

Results

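The genes described here are 43 human genes whose products copy DNA or prepare the cell for S phase, the stage of the cell cycle in which the genome is duplicated. They were chosen by symbol from a written list, with earlier results of these data known. The rule itself used no measured value, and all 43 were present among the 18739 genes of the deposited tables. They comprise the MCM helicase subunits, the proteins that license replication origins or activate the helicase, the polymerases and primase, the sliding clamp with its loader and the enzymes that finish Okazaki fragments, the enzymes of deoxynucleotide supply, regulators of the G1/S transition, and factors of chromatin assembly and histone mRNA. Their RNA was measured in the established cell line SK-N-SH, which derives from a human neuroblastoma, in 12 RNA-seq libraries that form 4 groups of 3. The chaetocin group was treated with chaetocin at 50 nM, and the DMSO group received the solvent; the genotype of both is given as WT. The siSUV39H1 group, with the genotype label SUV39H1-knockdown, was transfected with a short interfering RNA against SUV39H1, and the siNC group, labelled WT, with a control siRNA. SUV39H1 is a methyltransferase that places a repressive mark on histone H3. Chaetocin, a compound made by fungi, is in use as an inhibitor of this enzyme. The series' design text speaks of shNC and shSUV39H1 where the sample labels have siNC and si-SUV39H1, and the number of siRNAs, their sequences, the transfection time and the treatment time were not stated by any source at hand. All groups come from 1 cell line, so the measurements describe that line.

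A replication origin is licensed in G1 when the origin recognition complex, CDC6 and CDT1 load the MCM helicase onto DNA. At the start of S phase CDC45 and the GINS complex turn the loaded helicase into an active one, polymerase alpha with its primase lays down primers, and polymerases delta and epsilon extend them on the sliding clamp PCNA. Many genes of this machinery are transcribed in late G1 by E2F factors, which the retinoblastoma family of proteins restrains in resting cells, so their RNA is commonly read as a sign of proliferation.

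The promoters of several genes are shown because a shared E2F core is a feature that the choice of the genes did not use. The search covered the letters TTCCCGC, the letters TTGGCGC, the letters TTCGCGC and the letters TTGCCGC on both strands, from 250 bases before to 50 bases after each annotated start in RefSeq (GRCh38.p14). A core was present in 32 of the 39 genes found in the promoter table, or 82.1%, against 2813 of 11952 tested genes with a promoter there, or 23.5%, and 15.3% of all 27305 genes of that table. Where the window was narrowed to 100 bases before and 50 after the start, the shares were 76.9% of the 39 genes and 13.4% of the tested genes. A CCAAT box (letters CCAAT, both strands) was present in 56.4% of the 39 promoters and 42.9% of those of the tested genes, and TTTGAA, the letters of a CHR-type element of many late cell cycle genes, in 5.13% and 14.5%. CCNE2, MCM5, MCM4 and GINS4 were not among the 39. Below are the 60 bases before the start, 5′ to 3′ on the strand of the gene, for 7 genes with a core that fell with chaetocin, for POLA2, which rose, and for SLBP, which was not called; these 9 were chosen after their values were seen. Capitals mark the E2F cores on either strand, which overlap each other in CDC25A. TK1 has 2 annotated starts, and the one with a core was taken. Its other start had 0 cores in the whole window searched.
GINS2, chr16:85688955-85689014, minus strand: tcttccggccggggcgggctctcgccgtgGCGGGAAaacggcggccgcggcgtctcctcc
CDC25A, chr3:48188418-48188477, minus strand: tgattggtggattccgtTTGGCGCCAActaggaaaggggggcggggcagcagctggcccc
E2F1, chr20:33686386-33686445, minus strand: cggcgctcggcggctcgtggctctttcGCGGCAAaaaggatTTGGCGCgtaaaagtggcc
E2F2, chr1:23531234-23531293, minus strand: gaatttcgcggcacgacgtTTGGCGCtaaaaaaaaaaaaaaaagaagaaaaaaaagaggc
PRIM1, chr12:56752324-56752383, minus strand: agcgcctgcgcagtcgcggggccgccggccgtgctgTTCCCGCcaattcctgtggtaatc
TK1, chr17:78187053-78187112, minus strand: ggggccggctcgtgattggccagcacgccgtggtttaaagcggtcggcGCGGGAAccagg
CHAF1A, chr19:4402580-4402639, plus strand: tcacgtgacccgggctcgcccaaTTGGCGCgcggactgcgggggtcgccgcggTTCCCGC
POLA2, chr11:65261902-65261961, plus strand: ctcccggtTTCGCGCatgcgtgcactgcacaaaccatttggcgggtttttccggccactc
SLBP, chr4:1712320-1712379, minus strand: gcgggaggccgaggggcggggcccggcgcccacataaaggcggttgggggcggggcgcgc
The cores lay 12 to 52 bases before the start in the 8 genes that have one in this stretch, counting the core farthest from the start, and POLA2 carried one although it rose. By call, 10 of the 13 genes with a promoter that were lower with the knockdown had a core within the 300-base window, against 22 of the 26 that were not called. A match is a run of letters only, and no binding was measured.

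Each library held between 18004632 and 19976995 expected counts over the genes of the tables. Levels are normalised read counts, scaled by TMM to 1000000 counts per library (CPM), changes are log2 fold changes ± SE from edgeR's quasi-likelihood fit of all 12 libraries, and a gene was called at a Benjamini-Hochberg adjusted p under 0.05 over the 15051 genes tested. SUV39H1 itself had 7.69, 7.83 and 7.44 CPM in the chaetocin libraries, against 20.3, 19.6 and 24.6 CPM in the DMSO libraries. It had 5.73, 6.07 and 5.48 CPM in the siSUV39H1 libraries, against 18.7, 17.0 and 16.7 CPM in the siNC libraries, so that the knockdown libraries carried the low level their label implies. Its paralogue SUV39H2 was called in neither comparison, with log2 fold changes of 0.03 ± 0.16 with chaetocin and 0.38 ± 0.16 with the knockdown. Of 12 neuroblast markers, all were detected in the chaetocin and siSUV39H1 libraries and all but TH in the DMSO and siNC libraries, and 8 mesenchymal markers were detected throughout. The summed neuroblast markers reached 80.0 to 82.8 TPM (transcripts per 1000000, a value per length) in the chaetocin libraries, against 1192 to 1503 TPM in the DMSO libraries, with all 11 tested markers called lower. The same sum was 914 to 990 TPM in the siSUV39H1 libraries, against 734 to 754 TPM in the siNC libraries. Markers of leukocytes summed to 272 to 294 TPM with chaetocin, against 168 to 177 TPM with DMSO, with CD3E and TYROBP at 0 in DMSO. Endothelial markers summed to 10.5 to 11.5 TPM with chaetocin and 1.34 to 1.67 TPM with DMSO, with CDH5 at 0 in DMSO, and epithelial markers to 179 to 187 TPM with chaetocin and 125 to 137 TPM with DMSO, with ESRP1 at 0 in DMSO. Mesenchymal markers summed to 6512 to 7753 TPM with chaetocin and 13626 to 14089 TPM with DMSO, and Schwann cell markers to 53.0 to 57.7 TPM with chaetocin and 54.0 to 57.1 TPM with DMSO, but to 31.2 to 33.6 TPM in siSUV39H1 against 52.1 to 57.4 TPM in siNC libraries. What part these shifts have in the values of the replication genes was not tested.

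Chaetocin lowered nearly the whole replication set. Of the 43 genes, all of which passed the filter on low counts, 40 were called lower, 1 was called higher (POLA2) and 2 were not called (CCNE2 and SLBP). Among all genes tested 79.5% were called, 38.4% lower and 41.1% higher, which is the background for these counts. The median log2 fold change of the 43 was -0.81, beside 0.04 over all genes tested, and 16 of them were lower by more than 2-fold. The share beyond 2-fold was not counted over all genes tested, so nothing is read from that last count. In 40 of the 43, every chaetocin library lay below every DMSO library, a pattern found in 40.1% of all genes tested. Summed over the 43 genes, the level was 1059 ± 30.3 TPM in the chaetocin libraries and 1624 ± 139 TPM in the DMSO libraries (SD, n = 3 each). In CPM, the scale of the calls, the sums were 1202 ± 5.21 with chaetocin and 2078 ± 134 with DMSO. DMSO replicate 1 was the highest DMSO library for 36 of the 43 genes, and its sum of 1782.5 TPM was above the 1563 and 1526 TPM of DMSO replicates 2 and 3. The same 40 genes were called lower when any 1 library was left out, DMSO replicate 1 included. With bulk RNA, fewer cells in S phase and less RNA per cell cannot be told apart.

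With the knockdown fewer of these genes were called. 15 of the 43 were called lower in siSUV39H1 against siNC and 0 were called higher, where 33.9% of all genes tested were called, 18.6% lower and 15.3% higher. That background split depends on the scale: 2310 genes were higher and 2799 lower in this fit, against 2800 higher and 2549 lower with library totals alone, and 3318 higher and 1941 lower with limma on log2(TPM + 1), where 9 of the 43 were lower. At an unadjusted p under 0.05 edgeR also gave 0 higher, and DESeq2 called 0 higher. Other settings did call genes higher: PCNA with library totals alone, with limma on TPM and without siNC replicate 2, and PRIM1 with limma on log2(TPM + 0.1). The median log2 fold change was -0.13, beside 0.01 over all genes tested, and 1 gene (CCNE2) was lower by more than 2-fold, again without a share over all genes beside it. The summed level was 1170 ± 26.1 TPM in the siSUV39H1 libraries and 1207 ± 15.4 TPM in the siNC libraries (SD, n = 3 each). In CPM, the scale of the calls, the sums were 1299 ± 69.1 in siSUV39H1 and 1467 ± 60.7 in siNC libraries. 16 genes had every siSUV39H1 library below every siNC library, beside 21.6% of all genes tested. 10 of the 15 calls held whichever library was left out; MCM2, MCM5, RFC3, POLA1 and SLBP did not, and their values are given below with the libraries concerned. No single gene can pass 0.05 in an exact two-sided permutation test of 3 against 3 libraries, whose smallest p is 0.1.

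**Figure D1:**
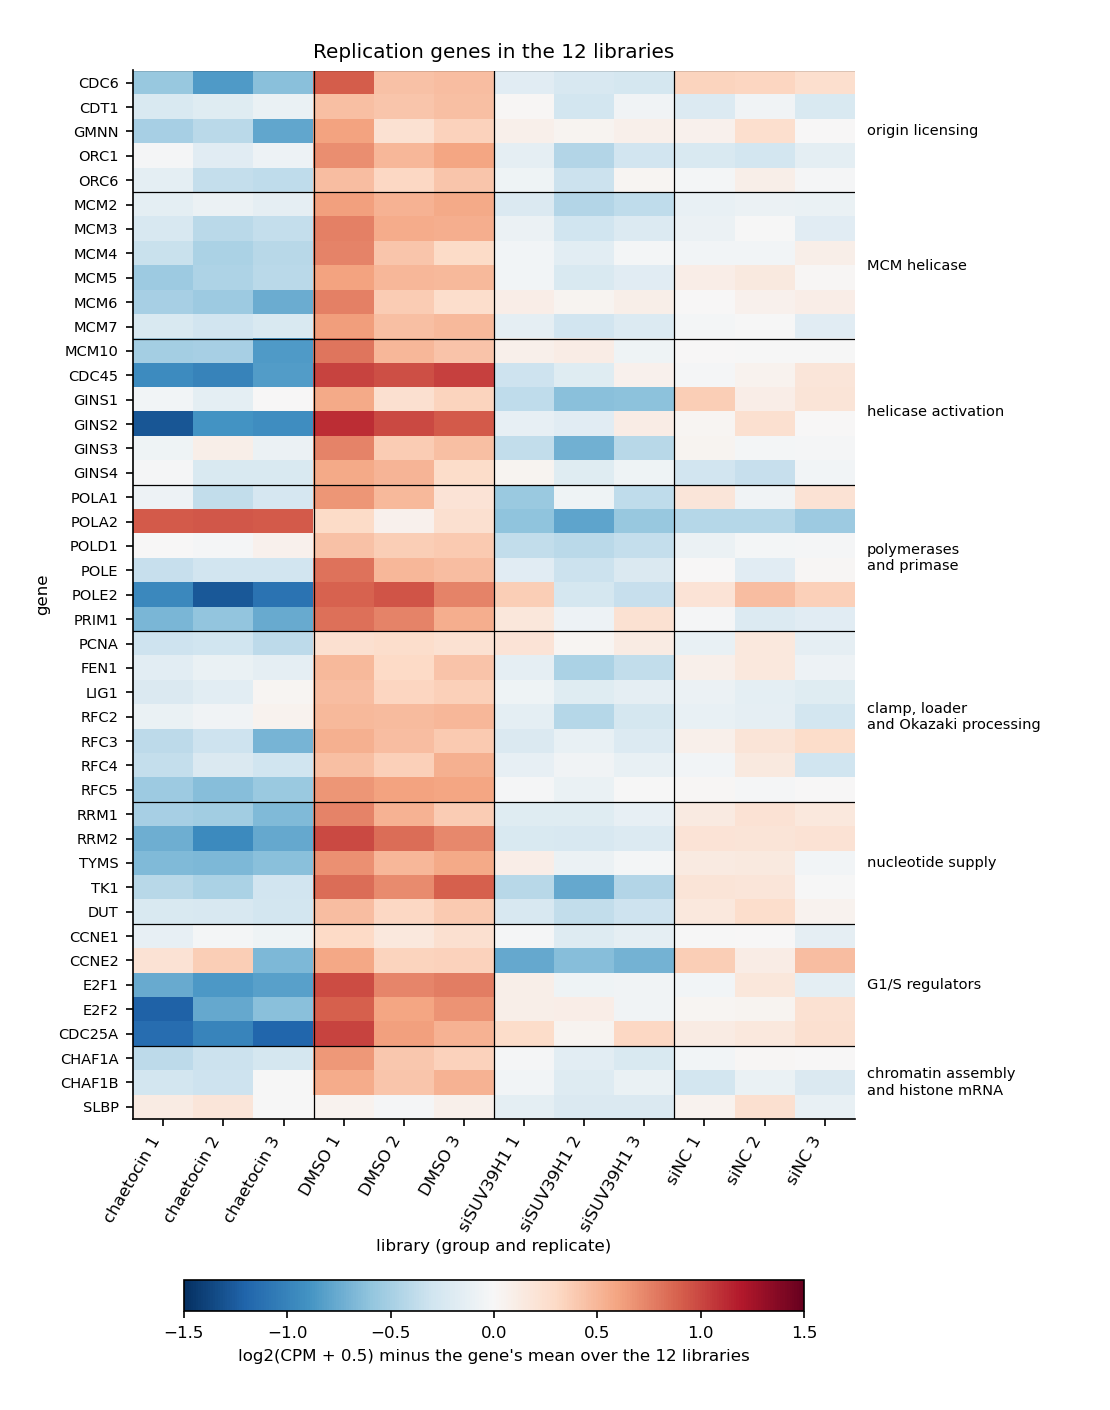
Each row is 1 of the 43 genes, grouped by role, and each column 1 library; the colour gives log2(CPM + 0.5) minus the mean of that gene over the 12 libraries, with blue for low and red for high. The DMSO columns are red or pale red in nearly every row. The chaetocin columns are blue or near white in most rows and red for POLA2, and the siSUV39H1 and siNC columns are paler than those of DMSO in most rows.

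The origin licensing factors all fell with chaetocin: all 5 were called lower, with a median log2 fold change of -0.73. CDC6, the ATPase that helps load the helicase, had 9.88, 7.98 and 9.46 CPM in the chaetocin libraries, against 28.3, 20.3 and 20.7 CPM in the DMSO libraries, and fell by 1.34 ± 0.13 on the log2 scale (edgeR adjusted p = 1.20e-07). GMNN, the geminin gene, whose product holds CDT1 in check after S phase has begun, had 8.20, 8.76 and 6.65 CPM with chaetocin, against 18.2, 13.8 and 15.1 CPM with DMSO, and fell by 1.00 ± 0.13 (edgeR adjusted p = 3.52e-06). Neither gene's groups overlapped. CDT1 (-0.62), the helicase loading factor, and ORC1 (-0.73) and ORC6 (-0.71), subunits of the origin recognition complex, fell as well (log2 fold changes). In the knockdown comparison CDC6 was the only one called: it had 13.2, 12.4 and 12.3 CPM in the siSUV39H1 libraries, against 18.8, 18.7 and 17.8 CPM in the siNC libraries, and fell by 0.55 ± 0.13 (edgeR adjusted p = 0.00367), with no overlap. GMNN stood at 12.3 ± 0.176 CPM in siSUV39H1 and 12.7 ± 1.25 CPM in siNC cells (SD, n = 3 each), and was not called, with a 95% interval of its log2 fold change from -0.32 to 0.22.

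The 6 subunits of the MCM helicase ring, which unwinds the parental strands, all fell with chaetocin, within a narrow range of log2 fold changes from -1.09 to -0.70. MCM6 had 24.9, 24.0 and 20.8 CPM in the chaetocin libraries, against 60, 46.0 and 42.4 CPM in the DMSO libraries, and fell by 1.09 ± 0.11 on the log2 scale (edgeR adjusted p = 2.74e-07). For MCM5 the values were 39.1, 41.4 and 43.3 CPM with chaetocin, against 87.2, 81.5 and 80.7 CPM with DMSO, and it fell by 1.01 ± 0.07 (edgeR adjusted p = 2.92e-09). The groups did not overlap for either gene, although DMSO replicate 1 stood well above the other DMSO libraries for MCM6. With the knockdown, MCM2 and MCM5 were called lower by small amounts. MCM2 had 50.4, 42.8 and 44.7 CPM in the siSUV39H1 libraries, against 53.9, 54.9 and 54.6 CPM in the siNC libraries, and fell by 0.24 ± 0.07 (edgeR adjusted p = 0.012). Its groups did not overlap, but the adjusted p became 0.0585 without siSUV39H1 replicate 2 and 0.0545 without siSUV39H1 replicate 3 in edgeR. MCM5 had 55.5, 48.8 and 50.9 CPM in siSUV39H1, against 61.5, 63.8 and 57.8 CPM in siNC, and fell by 0.24 ± 0.07 (edgeR adjusted p = 0.0167), a call lost without siNC replicate 1 (0.0685), siNC replicate 2 (0.0661), siSUV39H1 replicate 2 (0.0728) or siSUV39H1 replicate 3 (0.0624). MCM6 did not move beyond its spread, at 37.3 ± 0.743 CPM in siSUV39H1 and 36.8 ± 1.29 CPM in siNC cells (SD, n = 3 each), with a 95% interval of the log2 fold change from -0.22 to 0.25. The others, MCM3 (-0.10), MCM4 (-0.08) and MCM7 (-0.14), were not called.

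Helicase activation included partners that fell by very different amounts. CDC45 and the 4 GINS subunits form the active helicase with the MCM ring, and MCM10 assists their activation; all 6 genes fell with chaetocin, at a median log2 fold change of -0.95. GINS2 had 4.89, 6.58 and 6.38 CPM in the chaetocin libraries, against 27.9, 25.6 and 24.3 CPM in the DMSO libraries, and fell by 2.12 ± 0.13 on the log2 scale, or 4.36-fold (edgeR adjusted p = 4.77e-10). CDC45 had 5.35, 5.13 and 5.80 CPM with chaetocin, against 22.2, 21.6 and 22.5 CPM with DMSO, and fell by 2.02 ± 0.11, or 4.07-fold (edgeR adjusted p = 2.08e-10). The lowest DMSO library lay above the highest chaetocin library by 3.69-fold for GINS2 and 3.72-fold for CDC45. MCM10 fell by 1.26 ± 0.13, while GINS1 (-0.47), GINS3 (-0.58) and GINS4 (-0.64), which encode the partners of GINS2 in 1 complex, fell by less. With the knockdown GINS1 and GINS3 were called. GINS1 had 6.52, 5.44 and 5.48 CPM in the siSUV39H1 libraries, against 11.3, 9.27 and 9.98 CPM in the siNC libraries, and fell by 0.81 ± 0.13 (edgeR adjusted p = 0.000185), and GINS3 fell by 0.52 ± 0.13 (edgeR adjusted p = 0.00598). Neither overlapped between the groups. GINS2 stood at 12.1 ± 1.37 CPM in siSUV39H1 and 13.5 ± 1.29 CPM in siNC cells, and CDC45 at 9.76 ± 1.35 and 11.3 ± 0.823 CPM (SD, n = 3 each); the groups overlapped, and neither was called, although CDC45 reached an adjusted p of 0.0493 in edgeR without siSUV39H1 replicate 3.

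**Figure D2:**
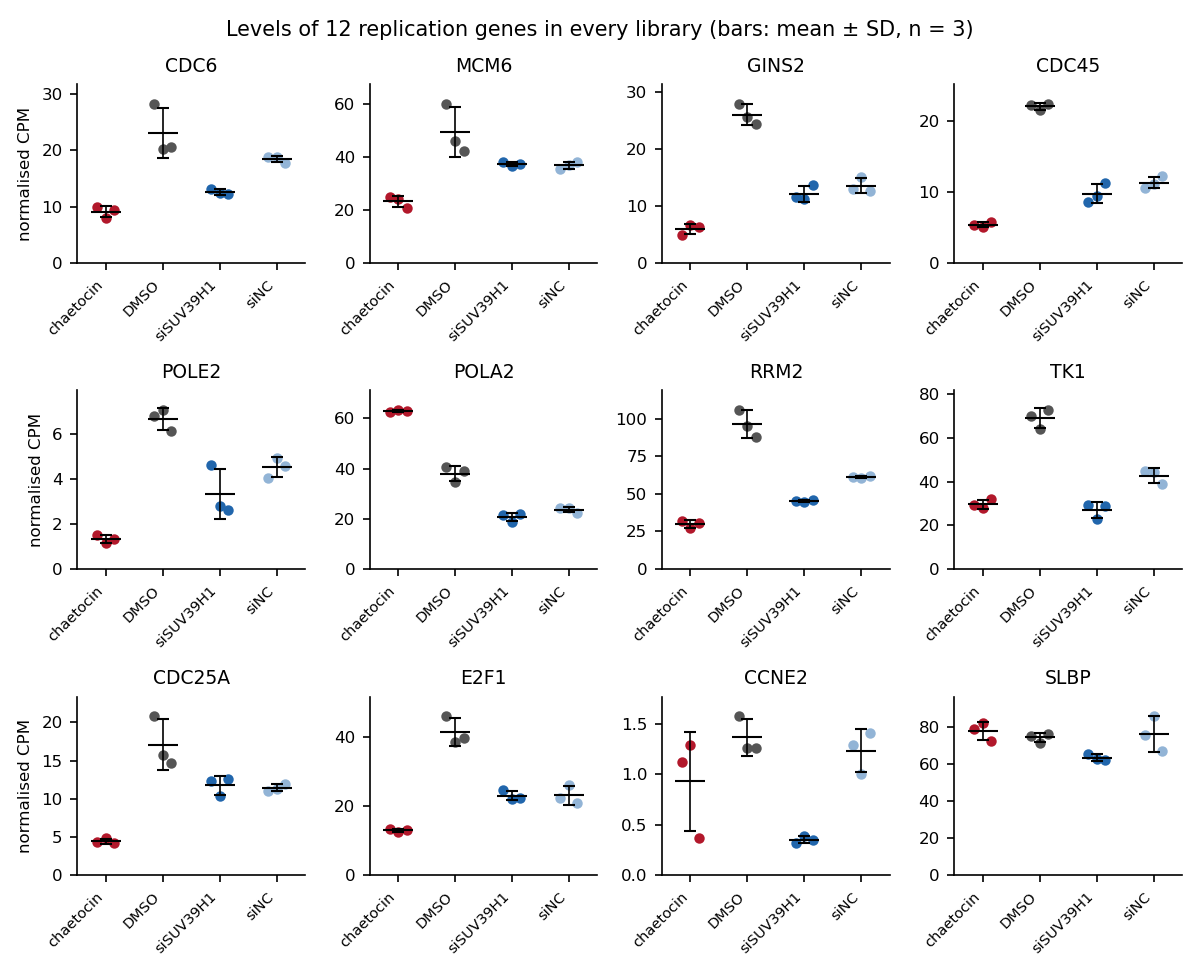
Each panel shows 1 gene, with its normalised CPM on the vertical axis from 0 and the 4 groups on the horizontal axis; points are libraries and bars the mean ± SD of 3. GINS2, CDC45, POLE2 and CDC25A are lowest with chaetocin and highest with DMSO, POLA2 is highest with chaetocin, and CCNE2 is lowest with siSUV39H1.

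The polymerase and primase genes gave both extremes of the chaetocin comparison. POLE2, the second subunit of polymerase epsilon, had 1.53, 1.14 and 1.33 CPM in the chaetocin libraries, against 6.81, 7.08 and 6.12 CPM in the DMSO libraries, and fell by 2.32 ± 0.22 on the log2 scale, or 4.98-fold (edgeR adjusted p = 7.99e-08). PRIM1, the catalytic subunit of primase, had 3.67, 3.94 and 3.46 CPM with chaetocin, against 11.3, 10.7 and 9.23 CPM with DMSO, and fell by 1.5 ± 0.13 (edgeR adjusted p = 5.25e-08). Both were low in every chaetocin library, with no overlap. POLE (-0.92) and POLD1 (-0.39), the catalytic subunits of polymerases epsilon and delta, and POLA1 (-0.74), the catalytic subunit of polymerase alpha, were also called lower.

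POLA2, the accessory subunit that partners POLA1, went the other way. It had 62.6, 63.5 and 62.8 CPM in the chaetocin libraries, against 40.5, 34.5 and 39.1 CPM in the DMSO libraries, and rose by 0.73 ± 0.08 on the log2 scale, or 1.66-fold (edgeR adjusted p = 7.02e-07). Every chaetocin library was above every DMSO library, and the call held whichever library was left out. POLA2 (Entrez 23649) spans chr11:65261762-65305589 on the plus strand in GENCODE 29 (GRCh38), a span whose start lies before the RefSeq start used for its promoter. There a further gene on that strand, AP000944.2, which the tables do not list, shares 2012 exon bases with it. CDC42EP2, a regulator of the actin cytoskeleton that lies after POLA2 on the chromosome and was chosen after its values were seen, had 28.3 ± 1.44 CPM with chaetocin and 11.5 ± 1.36 CPM with DMSO (SD, n = 3 each) and rose by 1.29 ± 0.10 (edgeR adjusted p = 1.36e-08). In siNC cells CDC42EP2 had 16.4 ± 1.19 CPM, above DMSO, while POLA2 had 23.7 ± 1.11 CPM, below its 38.0 ± 3.15 CPM in DMSO cells. In siSUV39H1 cells CDC42EP2 had 10.9 ± 0.713 CPM and POLA2 20.8 ± 1.70 CPM (SD, n = 3 each). Whether reads of a transcript shared with another gene enter the POLA2 value was not tested.

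In the knockdown comparison POLA1 and POLD1 were called lower. POLA1 had 4.52, 6.56 and 5.17 CPM in the siSUV39H1 libraries, against 7.88, 6.63 and 8.06 CPM in the siNC libraries, and fell by 0.47 ± 0.16 on the log2 scale (edgeR adjusted p = 0.0365). The groups were only just apart, at 6.56 CPM in the highest siSUV39H1 library and 6.63 CPM in the lowest siNC library, and the call was lost without siSUV39H1 replicate 1 (0.113), siSUV39H1 replicate 3 (0.11), siNC replicate 1 (0.108) or siNC replicate 3 (0.0984). With no library left out, the POLA1 call was also lost in a separate fit of these 6 libraries (edgeR adjusted p = 0.0573). The replicate block (0.0582) and library totals alone (0.0823) lost it too, while it held with upper-quartile scaling and DESeq2. POLD1 had 24.4 ± 0.427 CPM in siSUV39H1 and 30.9 ± 0.933 CPM in siNC cells (SD, n = 3 each) and fell by 0.34 ± 0.07 (edgeR adjusted p = 0.00161). POLE2 was at 4.62, 2.79 and 2.61 CPM in siSUV39H1, against 4.04, 4.95 and 4.58 CPM in siNC, with siSUV39H1 replicate 1 as high as the control libraries. It was not called (log2 fold change -0.44, edgeR adjusted p = 0.094), but without that library its log2 fold change was -0.74 and its adjusted p 0.00341 in edgeR. PRIM1 was also not called and had the highest estimate of the set, at 0.26 with a 95% interval from -0.02 to 0.54. POLA2 was at 21.5, 18.9 and 22.0 CPM in siSUV39H1, against 24.3, 24.4 and 22.4 CPM in siNC, without overlap but not called (edgeR adjusted p = 0.107).

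The clamp, its loader and the enzymes of Okazaki fragment processing fell with chaetocin in all 7 cases, by a median of -0.58 on the log2 scale. RFC5, a small subunit of the loader that opens PCNA, had 10.6, 9.85 and 10.5 CPM in the chaetocin libraries, against 25.1, 24.0 and 23.9 CPM in the DMSO libraries, and fell by 1.24 ± 0.08 (edgeR adjusted p = 1.93e-09). RFC3, another loader subunit, had 12.9, 13.7 and 10.3 CPM with chaetocin, against 25.0, 23.7 and 22.5 CPM with DMSO, and fell by 0.95 ± 0.11 (edgeR adjusted p = 8.36e-07). Both were apart in every library. RFC4 (-0.77), RFC2 (-0.52), PCNA (-0.58), the flap endonuclease gene FEN1 (-0.54) and the DNA ligase gene LIG1 (-0.50) were called lower as well. With the knockdown FEN1 and RFC3 were called: FEN1 had 52.2, 41.0 and 44.3 CPM in the siSUV39H1 libraries, against 60.5, 64.0 and 54.2 CPM in the siNC libraries, and fell by 0.38 ± 0.09 (edgeR adjusted p = 0.00438). RFC3 had 14.6, 15.8 and 14.7 CPM in siSUV39H1, against 18, 19.5 and 20.7 CPM in siNC, and fell by 0.37 ± 0.11 (edgeR adjusted p = 0.0143), a call lost without siNC replicate 3 (0.0509) or siSUV39H1 replicate 3 (0.0515). Neither gene overlapped between the groups. PCNA, the gene of the set with the highest level per length in DMSO, was not called and had 123 ± 7.94 CPM in siSUV39H1 and 111 ± 13.1 CPM in siNC cells (SD, n = 3 each), with a 95% interval of the log2 fold change from -0.02 to 0.31. It was called higher without siNC replicate 2 (0.24, edgeR adjusted p = 0.0149), with library totals alone (0.18, edgeR adjusted p = 0.0391) and with limma on log2(TPM + 1) (0.26, adjusted p = 0.00247), and its TPM groups did not overlap.

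Both treatments lowered genes of deoxynucleotide supply: all 5 were called lower with chaetocin, at a median log2 fold change of -1.22, and 4 of 5 with the knockdown, at a median of -0.44. RRM2, the small subunit of ribonucleotide reductase, had 31.7, 27.1 and 30.9 CPM in the chaetocin libraries, against 106, 95.2 and 87.7 CPM in the DMSO libraries, and fell by 1.69 ± 0.08, or 3.22-fold (edgeR adjusted p = 2.20e-11). TYMS, thymidylate synthase, had 47.5, 46.9 and 48.5 CPM with chaetocin, against 121, 106 and 111 CPM with DMSO, and fell by 1.24 ± 0.07 (edgeR adjusted p = 3.79e-10). TK1, the thymidine kinase of cycling cells, had 29.3, 27.9 and 31.9 CPM with chaetocin, against 70.3, 64.1 and 73.1 CPM with DMSO, and fell by 1.22 ± 0.10 (edgeR adjusted p = 1.60e-08). No chaetocin library reached the DMSO range for any of the 3, and RRM1 (-1.12), the large reductase subunit, and DUT (-0.64), the dUTPase gene, fell as well. With the knockdown TK1 had 29.2, 22.7 and 28.8 CPM in the siSUV39H1 libraries, against 44.9, 44.5 and 39.1 CPM in the siNC libraries, and fell by 0.67 ± 0.10 (edgeR adjusted p = 0.000105). RRM2 had 45.1, 44.7 and 45.9 CPM in siSUV39H1, against 61.5, 60.6 and 61.8 CPM in siNC, and fell by 0.44 ± 0.08 (edgeR adjusted p = 0.000463). Again the groups were apart, and DUT (-0.47) and RRM1 (-0.33) were called too; RRM1 was not called with limma on log2(TPM + 1) (-0.21, adjusted p = 0.131). TYMS was not called: it had 74.9 ± 5.19 CPM in siSUV39H1 and 79.4 ± 5.69 CPM in siNC cells (SD, n = 3 each), with a 95% interval of the log2 fold change from -0.24 to 0.07.

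Among the G1/S regulators, the 2 E2F genes and CDC25A fell with chaetocin and were not called with the knockdown. CDC25A, the phosphatase that frees CDK2 from inhibition, had 4.28, 4.82 and 4.15 CPM in the chaetocin libraries, against 20.9, 15.7 and 14.7 CPM in the DMSO libraries, and fell by 1.95 ± 0.14 on the log2 scale, or 3.87-fold (edgeR adjusted p = 5.22e-09). E2F2, an activating E2F factor, had 2.65, 3.78 and 4.20 CPM with chaetocin, against 13.1, 10.4 and 11.1 CPM with DMSO, and fell by 1.70 ± 0.16 (edgeR adjusted p = 6.23e-08). E2F1, its better known relative, which was chosen after its values were seen, had 13.4, 12.4 and 13.0 CPM with chaetocin, against 46.2, 38.7 and 39.7 CPM with DMSO, and fell by 1.68 ± 0.10 (edgeR adjusted p = 6.34e-10). In all 3 the chaetocin libraries lay well below the DMSO libraries, whereas the knockdown values overlapped. E2F1 averaged 23.0 ± 1.42 CPM in siSUV39H1 and 23.1 ± 2.69 CPM in siNC cells, E2F2 7.01 ± 0.418 and 7.30 ± 0.615 CPM, and CDC25A 11.7 ± 1.23 and 11.5 ± 0.488 CPM (SD, n = 3 each). The 95% intervals of their log2 fold changes ran from -0.22 to 0.21 for E2F1, -0.37 to 0.26 for E2F2 and -0.25 to 0.32 for CDC25A, so falls of the size seen with chaetocin lay outside them.

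The cyclin E genes moved little or were not called with chaetocin. CCNE1, which activates CDK2 in late G1, had the smallest fall with chaetocin of the 40 called, at 7.05 ± 0.250 CPM with chaetocin and 8.83 ± 0.475 CPM with DMSO (SD, n = 3 each; log2 fold change -0.32 ± 0.11, edgeR adjusted p = 0.0118). That call was lost when libraries were scaled by their totals alone (log2 fold change -0.17, edgeR adjusted p = 0.107). CCNE2, its paralogue, was barely detected, with 22, 25 and 7 counts in the chaetocin libraries, against 30, 24 and 24 in the DMSO libraries, and was not called (edgeR adjusted p = 0.135); without chaetocin replicate 2 it was called lower, at -0.86 (edgeR adjusted p = 0.0464). Its siSUV39H1 libraries held 6, 8 and 7 counts, against 25, 19 and 28 in the siNC libraries. On the log2 scale it fell by 1.79 ± 0.39 (edgeR adjusted p = 0.00254), which was the largest fall of the 43 genes in that comparison, and the groups did not overlap. CCNE2 shares 1629 exon bases with INTS8 on the other strand in GENCODE 29. No source at hand states whether the counts used strand, so it is not known whether INTS8 reads enter the CCNE2 value.

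CHAF1A and CHAF1B, the large and middle subunits of the assembly factor that deposits histones behind the fork, both fell with chaetocin. CHAF1A had 18.9, 20 and 20.8 CPM in the chaetocin libraries, against 39.5, 33.3 and 32.1 CPM in the DMSO libraries, and fell by 0.81 ± 0.10 (edgeR adjusted p = 1.17e-06). CHAF1B had 16.2, 15.8 and 19.6 CPM with chaetocin, against 29.3, 26.5 and 28.6 CPM with DMSO, and fell by 0.71 ± 0.10 (edgeR adjusted p = 7.74e-06). The groups were apart for both, and neither gene was called with the knockdown (log2 fold changes -0.13 and 0.08). SLBP, which binds the stem-loop of replication-dependent histone mRNAs, was the reverse case. It had 78.9, 82.1 and 72.5 CPM with chaetocin, against 75.0, 71.5 and 76.3 CPM with DMSO, and was not called, with a 95% interval of its log2 fold change from -0.11 to 0.24. With library totals as the only scaling it was called higher, at 0.22 (edgeR adjusted p = 0.0152). In the knockdown comparison SLBP had 65.3, 62.6 and 62.3 CPM in the siSUV39H1 libraries, against 75.5, 86.0 and 67.0 CPM in the siNC libraries, and fell by 0.27 ± 0.08 (edgeR adjusted p = 0.0206). The siNC libraries were widely spread, and the call was lost without siNC replicate 1 (0.0713), siNC replicate 2 (0.119), siSUV39H1 replicate 2 (0.0559) or siSUV39H1 replicate 3 (0.071).

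**Figure D3:**
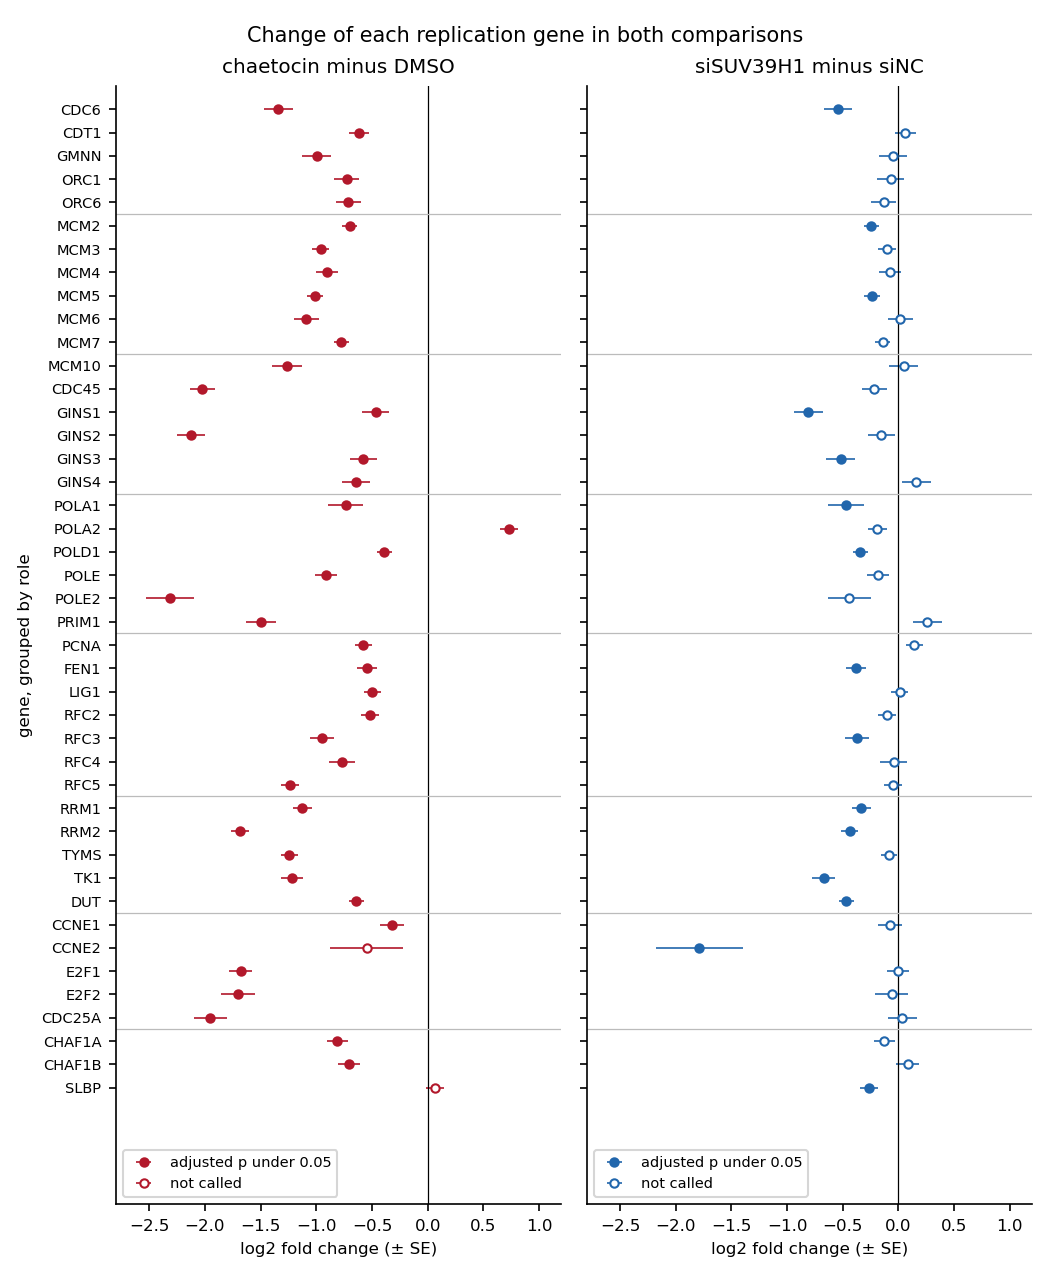
The 43 genes run down the page by role, with the log2 fold change ± SE of chaetocin minus DMSO on the left and of siSUV39H1 minus siNC on the right; filled points are called at an adjusted p under 0.05. The left panel has 40 filled points below 0 and POLA2 above it, and the right panel has 15 filled points, all below 0.

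Both comparisons were set against each other in the same fit, which uses 4 separate groups. 13 genes were called lower in both, 27 were called lower with chaetocin and not called with the knockdown, CCNE2 and SLBP were called lower with the knockdown and not called with chaetocin, and POLA2 was called higher with chaetocin and not called with the knockdown. The difference of the effects, chaetocin minus DMSO less siSUV39H1 minus siNC, was called lower for 33 of the 43 genes and higher for 3, where 67.6% of all genes tested were called, 33.7% lower and 33.9% higher. Its median was -0.73, beside 0.06 over all genes tested. Each effect in it is taken from its own control, and siNC was itself lower than DMSO for 37 of the 43 genes (median -0.56). CDC25A had the most negative difference, at -1.99 ± 0.20 (edgeR adjusted p = 2.83e-07), followed by GINS2 at -1.97 ± 0.18 (edgeR adjusted p = 9.81e-08). The 3 positive differences were those of POLA2 (0.92 ± 0.12, edgeR adjusted p = 5.64e-06), CCNE2 (1.24 ± 0.52, edgeR adjusted p = 0.0461) and SLBP (0.33 ± 0.12, edgeR adjusted p = 0.0188). The CCNE2 call was lost with 9 of the 12 libraries left out in turn, the largest adjusted p being 0.148 without chaetocin replicate 2, and the SLBP call without DMSO replicate 2 (0.0813), chaetocin replicate 2 (0.0565), siNC replicate 1 (0.0534) or siNC replicate 2 (0.0638). With all 12 libraries the CCNE2 call was also lost with DESeq2 (adjusted p = 0.112) and limma on log2(TPM + 1) (adjusted p = 0.121). In edgeR it was lost with the replicate block (0.0647) or no filter on low counts (0.0626). The CCNE2 call held with the other scalings and with limma on log2(TPM + 0.1).

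For 7 genes the difference was not called: GINS1, GINS3, DUT, CCNE1, POLA1, POLD1 and FEN1. GINS1 had a difference of 0.34 with a 95% interval from -0.04 to 0.72, and GINS3 one of -0.06 with an interval from -0.44 to 0.32. POLD1, at -0.05 with an interval from -0.26 to 0.16, had nearly the same estimate in both comparisons. The difference of GINS1 was called without DMSO replicate 1 (0.44, edgeR adjusted p = 0.0415) and that of DUT without siNC replicate 2 (-0.24, edgeR adjusted p = 0.0377). Across the 43 genes the fold changes of the separate comparisons were nearly unrelated, with a Pearson r of -0.10 and a Spearman rho of -0.11, given as a description since the genes share libraries and depth.

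**Figure D4:**
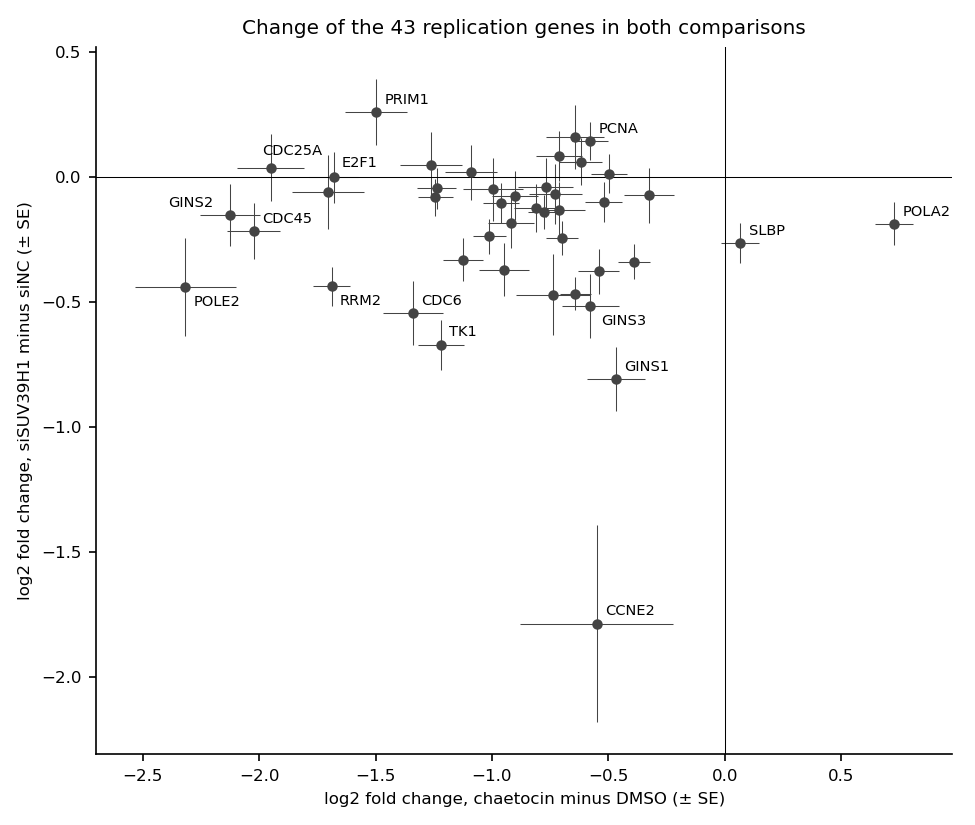
Each point is 1 of the 43 genes, with its log2 fold change ± SE for chaetocin minus DMSO on the horizontal axis and for siSUV39H1 minus siNC on the vertical axis. Most points lie left of 0 over a wide horizontal range and close to 0 vertically, with POLA2 to the right and CCNE2 at the bottom.

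The control groups themselves differed for these genes. In siNC against DMSO, 37 of the 43 were called lower and 0 higher, where 35.2% of all genes tested were called, 18.2% lower and 17% higher. At an unadjusted p under 0.05 edgeR also gave 0 higher, and DESeq2 called 0 higher. The median log2 fold change was -0.56, beside 0.00 over all genes tested, and 38 genes had every siNC library below every DMSO library, beside 24.4% of all genes tested. CDC45 averaged 11.3 ± 0.823 CPM in siNC and 22.1 ± 0.472 CPM in DMSO cells (SD, n = 3 each), the largest such fall (-0.96 ± 0.11, edgeR adjusted p = 7.23e-06). GINS2 fell by 0.94 ± 0.12, PRIM1 by 0.89 ± 0.13, ORC1 by 0.86 ± 0.12 and E2F1 by 0.85 ± 0.10. CDC6, GMNN, GINS1, CCNE2, POLA1 and SLBP were not called. Of the 37, 32 were called whichever library was left out, and 34 with limma on TPM. CCNE1 lost its call without any 1 of the 6 libraries (edgeR adjusted p up to 0.156 without siNC replicate 3), and RFC3 without any but siNC replicate 3 (up to 0.157 without siNC replicate 1). POLE2 lost it without DMSO replicate 1 (0.0666), DMSO replicate 2 (0.0791), siNC replicate 1 (0.099) or siNC replicate 3 (0.0607). PCNA lost it without siNC replicate 1 (0.0789) or siNC replicate 3 (0.0664), and DUT without DMSO replicate 1 (0.0604) or siNC replicate 3 (0.0685). CDC6 was called lower without DMSO replicate 2 (0.0262) or DMSO replicate 3 (0.035), GMNN without DMSO replicate 2 (0.0431) or siNC replicate 2 (0.0357), and POLA1 without DMSO replicate 3 (0.0317). With all libraries kept, CDC6 was also called lower with RLE scaling (edgeR adjusted p = 0.0448), upper-quartile scaling (0.0397) or the replicate block (0.0497). It was not called with library totals alone, DESeq2 or limma on TPM. The replicate block also lost the calls of CCNE1 (0.068) and RFC3 (0.0663).

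Against DMSO, the siSUV39H1 libraries were lower for 42 of the 43 genes, where 48.2% of all genes tested were called and 25.9% were lower, with a median of -0.72, beside -0.01 over all genes tested, and PCNA was the gene not called (log2 fold change -0.12 ± 0.08, edgeR adjusted p = 0.193). Of the 42, 40 were called whichever library was left out. GMNN lost its call without DMSO replicate 1 (edgeR adjusted p = 0.153), DMSO replicate 3 (0.0555), siSUV39H1 replicate 2 (0.0712) or siSUV39H1 replicate 3 (0.0664), and SLBP without any library but siSUV39H1 replicate 1 (up to 0.12 without DMSO replicate 3). With limma on TPM 35 of the 42 were called and SLBP, CDC25A, MCM10, CCNE1, GMNN, MCM6 and GINS4 were not; over all genes, log2(TPM + 1) gave 4689 higher and 2513 lower, against 3358 higher and 3893 lower with counts in edgeR. This comparison, that of siNC with DMSO and that of chaetocin with DMSO share the DMSO libraries, so their values are given side by side only. For the MCM ring the medians were -0.93 with chaetocin, -0.71 with siSUV39H1 and -0.54 with siNC. For the G1/S regulators they were -1.68 with chaetocin, -0.72 with siSUV39H1 and -0.58 with siNC. For the clamp, loader and Okazaki genes they were -0.58 with chaetocin, -0.66 with siSUV39H1 and -0.52 with siNC.

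**Figure D5:**
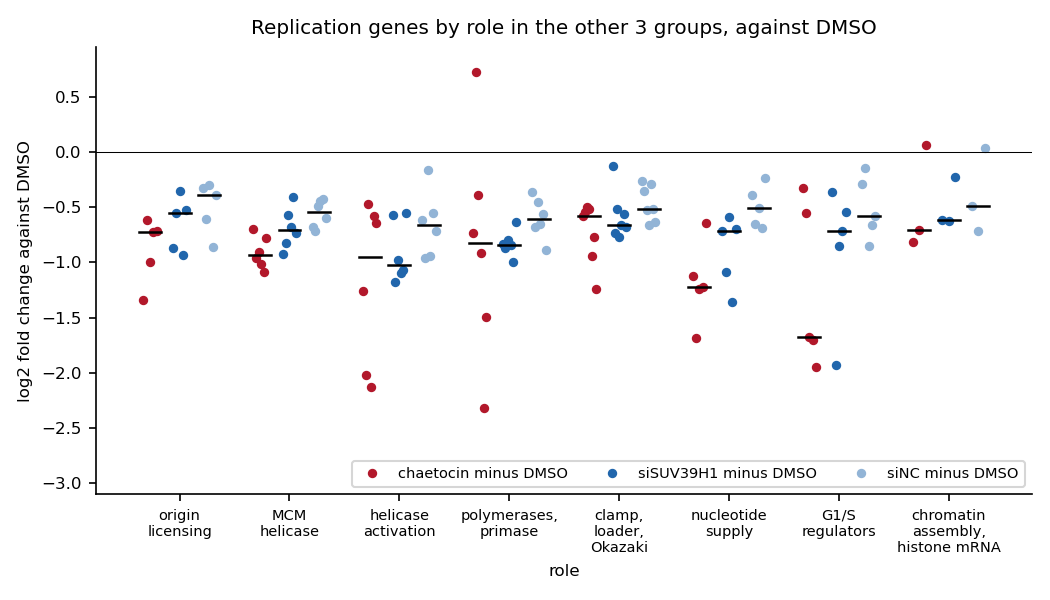
Each point is 1 gene in its role, with the log2 fold change against DMSO on the vertical axis for chaetocin, siSUV39H1 and siNC, and the black bar is the median of the role. Nearly all points lie below 0, and the chaetocin points spread most, from POLE2 at -2.32 to POLA2 at 0.73.

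Levels per length, given for genes chosen after their values were seen, placed the 43 genes on 1 scale. PCNA had 142 ± 7.86 TPM in chaetocin and 191 ± 8.12 TPM in DMSO cells, and 197 ± 3.80 TPM in siSUV39H1 and 164 ± 10.3 TPM in siNC cells (SD, n = 3 each). Next highest in DMSO were MCM7 with 115 ± 3.96 TPM in chaetocin and 178 ± 17.2 TPM in DMSO cells, and TYMS with 59.9 ± 1.05 TPM in chaetocin and 127 ± 11.6 TPM in DMSO cells (SD, n = 3 each). At the other end stood CCNE2, with 0.803 ± 0.250 TPM in chaetocin and 1.08 ± 0.393 TPM in DMSO cells. POLA2, at 46.4 ± 2.53 TPM in chaetocin and 26.4 ± 2.49 TPM in DMSO cells, was far above its partner POLA1, at 2.10 ± 0.257 TPM in chaetocin and 3.16 ± 0.647 TPM in DMSO cells (SD, n = 3 each). The chaetocin log2 fold change was only weakly related to the level in DMSO across the 43 genes, with a Pearson r of 0.14 and a Spearman rho of 0.14.

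The counts for the other lists stand beside the shares over all genes tested, 38.4% lower and 41.1% higher with chaetocin and 18.6% lower and 15.3% higher with the knockdown, and nothing is read from a count near them. Of other replication genes outside the 43, 20 of 42 were called lower and 12 higher with chaetocin, with a median log2 fold change of -0.23. TIMELESS, of the fork protection complex, was at 20.8 ± 1.11 CPM in chaetocin and 61.1 ± 4.08 CPM in DMSO cells and had a log2 fold change of -1.55 ± 0.08 (edgeR adjusted p = 8.73e-11). The accessory polymerase subunits POLD2 (-1.28) and POLE3 (-1.17) fell as well. With the knockdown 11 of the 42 were lower and 3 higher, with a median of -0.18, and POLE4 (-1.22), POLE3 (-1.06) and PRIM2 (-0.58), the large primase subunit, had the smallest p. POLE3 was at 38.0 ± 3.59 CPM in siSUV39H1 and 79.2 ± 1.94 CPM in siNC cells (SD, n = 3 each; edgeR adjusted p = 5.70e-08).

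Of 22 further genes of nucleotide synthesis, 14 were lower and 5 higher with chaetocin (median -0.50), and 10 lower and 4 higher with the knockdown (median -0.15). SAMHD1, which breaks down deoxynucleotides, stood at 95.1 ± 9.13 CPM in chaetocin and 16.0 ± 2.69 CPM in DMSO cells and rose by 2.58 ± 0.12 (edgeR adjusted p = 2.22e-11), while CAD (-1.48) of pyrimidine synthesis and PAICS (-0.82) of purine synthesis fell. With the knockdown DCTD (-0.88) and CTPS1 (-0.52) fell and TK2 (0.49), a mitochondrial kinase, rose. Among 17 chromatin assembly genes, 8 were lower and 4 higher with chaetocin (median -0.08), with CDCA7 (-3.11) and NASP (-1.48) lower and DAXX (1.26) higher, and 2 were lower and 3 higher with the knockdown (median 0.06), with ASF1B (-1.63) and UHRF1 (-0.59) lower and CABIN1 (0.47) higher.

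The E2F and retinoblastoma list, without the 43 genes, had 15 lower and 9 higher of 32 tested with chaetocin (median -0.19) and 8 lower and 3 higher with the knockdown (median -0.06). CDK2 (-2.12), CCNA2 (-1.73) and the inhibitor gene CDKN2C (-2.26) fell with chaetocin. CCNA2 (-1.04), CCND1 (-0.82) and TFDP1 (-0.74), the partner of E2F factors, fell with the knockdown. Mitotic genes were the list in which the knockdown called most: 21 of 30 were lower and 0 higher with siSUV39H1 (median -0.54), against 24 lower and 1 higher with chaetocin (median -0.74). FOXM1 (-2.22), MYBL2 (-2.23) and BIRC5 (-1.79) had the smallest p with chaetocin, and KIF20A (-0.88), CCNB1 (-0.76) and PLK1 (-0.88) with the knockdown. In siNC against DMSO 20 of these 30 were lower and 0 higher (median -0.51).

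Some of the 43 genes share sequence with others. GENCODE 29 lists pseudogenes under the name of 7 of them, 8 for DUT, 3 each for PCNA and RRM2, 2 for TYMS and 1 each for FEN1, RFC3 and RFC5, and the tables hold none of these, so reads assigned among the copies cannot be followed here. 10 of the 43 overlap a tested gene on the other strand, TYMS with ENOSF1 over 967 exon bases and MCM7 with AP4M1 over 392 among them. The values of these genes are uncertain to that extent.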

How the data were processed

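RNA was measured by RNA-seq in 12 SK-N-SH libraries, 3 per group, deposited as 1 table per group. The authors' counts per gene and library stand in columns headed read_count and are termed expected counts here. The deposited TPM values are scaled by gene length and library total. FPKM values were also deposited and not used here. Bowtie2, RSEM 1.3.1, DESeq2 1.4.5 and the build hg38 are named in the submitters' processing notes with no role; the annotation, read filters and strand setting have no source at hand. All 12 libraries were mapped by their titles, with 0 columns of single libraries left out.

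Expected counts were rounded to whole numbers. The 12 libraries, which held 18004632 to 18235528 counts with chaetocin, 19595821 to 19687556 with siSUV39H1, 19748841 to 19875841 with siNC and 19644426 to 19976995 with DMSO, were fitted together in edgeR 4.0.16 (R 4.3.3) by group, with TMM scaling, the default filter on low counts (15051 of 18739 genes kept), the quasi-likelihood test and Benjamini-Hochberg adjustment over all genes tested. The spread between replicates corresponded to a biological coefficient of variation of 8.87%, and the variance between replicates was 3.36 to 17.9 times that of counting alone. The fit was tested on simulated data. The design text speaks of biological triplicates, but the labels do not name separate cultures, so p-values measure the spread between these samples. The tables were deposited per group, so a table and a treatment cannot be told apart.

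The 43 genes, the other gene lists and the tests were chosen with earlier results of these data known. Every one of the 43 is named; values per library are given, in each role, for the 2 genes of largest change among those called with chaetocin and the 1 among those called with the knockdown, and for any gene called against the main direction; genes shown beyond that are said to be chosen after their values were seen. From each other list the 3 genes of smallest p per comparison are named. Overlaps come from GENCODE 29, and promoters (250 bases before to 50 after the start) from RefSeq, GRCh38.p14. The alternatives were other scalings, no filter on low counts, an adjusted p under 0.01, separate fits of 6 libraries, a replicate block, each library left out, DESeq2 1.42.0, and limma 3.58.1 on log2(TPM + 1) and log2(TPM + 0.1).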

Additional observations from a re-analysis of the deposited data

How the results depend on the processing

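The 40 genes lower with chaetocin held with every library left out, and 38 held with TPM in limma (CCNE1 and GINS1 were lost). Of the 15 lower with the knockdown, 10 held with every library left out and 9 with log2(TPM + 1) or log2(TPM + 0.1), where RRM1 was lost beside the 5 named above. Genes called higher with chaetocin numbered 2 with library totals alone and with both TPM settings, where SLBP joined POLA2. Genes called higher with the knockdown numbered 1 with library totals, 1 with log2(TPM + 1), 2 with log2(TPM + 0.1), and 0 to 1 with 1 library left out (1 without siNC replicate 2): PCNA each time, joined by PRIM1 with log2(TPM + 0.1). Positive differences between the effects numbered 1 at an adjusted p under 0.01 and 1 to 4 with 1 library left out (1 without DMSO replicate 2, chaetocin replicate 2 or siNC replicate 1, and 4 without DMSO replicate 1). Library totals alone moved the median of all genes by 0.15 with chaetocin and by 0.0408 with the knockdown, and log2(TPM + 1) by 0.112 with chaetocin, 0.0675 with the knockdown and 0.103 for siSUV39H1 against DMSO. TTTGAA was found in 0 of the 39 promoters in the shorter window. No value whose sign changed was called before or after. In the knockdown comparison these were CDC25A (-0.018 to 0.12 with 1 library left out), E2F1 (0.0053, 0.018 and 0.039 with other scalings, 0.0045 with DESeq2, 0.11 with both TPM settings, -0.073 to 0.093 with 1 library left out), E2F2 (-0.0901 to 0.013 with 1 library left out, 0.10 and 0.13 with TPM), GMNN (-0.10 to 0.032 with 1 library left out, 0.046 and 0.048 with TPM), RFC5 (0.093 and 0.099 with TPM), TYMS (0.0296 and 0.0299 with TPM), CDT1 (-0.0025 to 0.145 with 1 library left out), LIG1 (-0.017 to 0.046 with 1 library left out), ORC1 (-0.154 to 0.011 with 1 library left out, 0.035 and 0.044 with TPM), RFC4 (-0.158 to 0.077 with 1 library left out, 0.0017 with library totals, 0.076 and 0.081 with TPM), MCM4 (0.038 and 0.039 with TPM) and CCNE1 (0.030 and 0.033 with TPM). In the difference they were GINS3 (-0.18 to 0.054 with 1 library left out, 0.051 with library totals, 0.0078 and 0.021 with TPM) and POLD1 (0.0090 with upper-quartile scaling, 0.060 with library totals), in siNC against DMSO SLBP (-0.059 to 0.12 with 1 library left out), and in siSUV39H1 against DMSO PCNA (0.042 with both TPM settings). The cause of these changes was not tested. Over the 43 genes, 5 comparisons and all settings, 3673 values kept direction and call, 129 lost the call, 23 gained it and 45 changed sign. Same-numbered replicates did not deviate together (r of 0.0681, -0.0461 and 0.056 for chaetocin with DMSO, and -0.0453, -0.269 and 0.16 for siSUV39H1 with siNC), and not every sample correlated best with its own number. With the replicate block 40 genes were lower and 1 higher with chaetocin, 14 lower with the knockdown, and 33 lower and 2 higher in the difference. Depth limits CCNE2 most, at 6 to 30 counts per library.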

Other observations

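The genes of this paragraph were chosen after their values were seen. The origin recognition complex did not move as a unit with chaetocin. ORC1 and ORC6 fell, whereas ORC2, ORC3, ORC4 and ORC5, which encode the other core subunits listed, were called higher. ORC4 had 103, 95.7 and 116 CPM in the chaetocin libraries, against 34.6, 37.8 and 31.1 CPM in the DMSO libraries, and rose by 1.60 ± 0.12 on the log2 scale (edgeR adjusted p = 8.26e-09). ORC3 had 22.9, 23.3 and 19.3 CPM with chaetocin, against 14.4, 14.4 and 12.4 CPM with DMSO, and ORC5 had 28.1, 29.5 and 24.2 CPM with chaetocin, against 18.7, 16.8 and 16.5 CPM with DMSO. No chaetocin library of these genes overlapped the DMSO libraries. ORC3 rose by 0.67 ± 0.11 (edgeR adjusted p = 6.32e-05), ORC5 by 0.65 ± 0.10 (edgeR adjusted p = 1.38e-05) and ORC2 by 0.47 ± 0.12 (edgeR adjusted p = 0.0016). Over 18 settings the highest adjusted p of the 4 genes was 0.0101, and none was called in siSUV39H1 against siNC, where the log2 fold changes were -0.19 for ORC2, 0.00 for ORC3, 0.00 for ORC4 and -0.14 for ORC5. The siNC libraries were also all above DMSO for ORC2 (20.8 to 24.3 CPM, against 16.5 to 19.8 CPM in DMSO). The same held for ORC3 (16.3 to 19.1 CPM in siNC) and ORC5 (19.6 to 22.3 CPM in siNC). ORC4 overlapped between siNC (36.1 to 44.2 CPM) and DMSO. Of the 4 genes, only ORC3 had every siSUV39H1 library above every DMSO library.

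Ribonucleotide reductase also had members called in both directions; the genes of this paragraph, too, were chosen after their values were seen. RRM2B, the p53-inducible small subunit that can replace RRM2 outside S phase, had 138, 139 and 120 CPM in the chaetocin libraries, against 31.2, 35.8 and 30.9 CPM in the DMSO libraries. It rose by 2.02 ± 0.18 (edgeR adjusted p = 3.45e-08), while RRM1 and RRM2 fell, and in siSUV39H1 against siNC it was not called (0.03 ± 0.17). RRM2B was above every DMSO library in the siSUV39H1 libraries (40.6 to 70.2 CPM) and the siNC libraries (39.7 to 61.1 CPM) too. CDKN1A, the gene of the CDK inhibitor p21, rose by 0.75 ± 0.08 with chaetocin. It had 1933 to 2210 CPM in the chaetocin libraries, against 1147 to 1292 CPM in the DMSO libraries. Its siSUV39H1 libraries (1892 to 2163 CPM) and siNC libraries (1785 to 1966 CPM) were all above DMSO as well. CCND1, the gene of cyclin D1, was called higher with chaetocin (0.60 ± 0.08) and lower with the knockdown (-0.82 ± 0.08). Its siSUV39H1 libraries lay at 579 to 632 CPM, against 1012 to 1140.5 CPM in siNC and 529 to 655 CPM in DMSO libraries, so that the siSUV39H1 values were within the DMSO range. E2F7, a repressor of the E2F family, was also called higher with chaetocin (0.75 ± 0.11) and lower with the knockdown (-0.66 ± 0.11), at 40.5 to 45.2 CPM in siSUV39H1, 59.0 to 73.5 CPM in siNC and 29.9 to 41.9 CPM in DMSO libraries. For both genes siNC was above DMSO in every library. CENPE, a kinesin of the kinetochore, was the 1 gene of the mitotic list called higher with chaetocin (1.53 ± 0.31).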
